A study of Homo sapiens with 9 samples.

Results

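Notch signalling passes a message between cells that touch. A ligand on one cell (the Jagged proteins JAG1 and JAG2, the Delta-like protein DLL1) binds a Notch receptor on its neighbour, proteases of the ADAM family and then gamma-secretase cut the receptor, and the freed intracellular part joins the DNA-binding protein RBPJ and a coactivator of the Mastermind family (MAML1) to switch on target genes such as HES1 and HEY1. In the exocrine pancreas the pathway is known from progenitor cells, where HES1 holds back differentiation, and from acinar-to-ductal change and carcinoma. The 10 genes described here are the receptors NOTCH1, NOTCH2 and NOTCH3, the ligands JAG1, JAG2 and DLL1, the nuclear partners RBPJ and MAML1, and the targets HES1 and HEY1. They were taken by name, and all 10 have values among the 36753 genes of the files.

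The genes were measured by sequencing of mRNA in PANC-1 cells, an established epithelial line from a human pancreatic carcinoma. The 9 libraries fall into 3 groups of 3, all taken at 48 hours, counted from transfection in the knockdown groups. The siSIRT6 cells were transfected with short interfering RNA (siRNA) against the histone deacylase SIRT6. The siKDM5C cells received siRNA against KDM5C, a demethylase of histone H3 lysine 4. The remaining group is a control, and its titles do not say whether it received an siRNA. The part of transfection itself in the results was not tested. Values are FPKM (fragments counted on a gene, divided by its length and by the library's depth). Comparing levels between genes with them depends on the length used for each gene, which the sources used here do not give. How many siRNAs were used, and their sequences, the sources used here do not give. The labels do not tell whether replicates came from different cultures; p-values therefore measure the spread between these libraries, which may be technical.

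Each siRNA lowered its own target. SIRT6 had 0.795, 0.509 and 0.487 FPKM in siSIRT6 libraries, against 6.20, 5.17 and 7.17 FPKM in control. KDM5C had 3.65, 3.31 and 3.89 FPKM in siKDM5C libraries, against 18.0, 18.4 and 18.8 FPKM in control. Depth, worked out from the steps between FPKM values, was 18201413 to 26910441 reads in genes. All 5 markers of carcinoma epithelium (KRT7, KRT8, KRT18, KRT19, EPCAM) reached 1 FPKM in at least 3 libraries, with a summed level of 1398 to 1513 FPKM in siSIRT6, 695 to 856 FPKM in siKDM5C and 1091 to 1143 FPKM in control. Of 5 fibroblast markers only COL1A1 reached 1 FPKM, and it carried the list's sum of 40.9 to 42.9 FPKM in siSIRT6, 15.0 to 17.0 FPKM in siKDM5C and 15.6 to 16.6 FPKM in control, while COL1A2, DCN, LUM and PDGFRB stayed at or under 0.381 FPKM. Of the leukocyte markers CD68 and CD14 reached 1 FPKM, the list's sum was 35.8 to 38.8 FPKM in siSIRT6, 72.3 to 93.1 FPKM in siKDM5C and 43.4 to 57.5 FPKM in control, and PTPRC, which all leukocytes carry, did not exceed 0.0120 FPKM. No endothelial, acinar or islet marker with a value reached 1 FPKM. The part of these keratin, COL1A1 and CD68 differences in the Notch results was not tested, and in such bulk RNA fewer expressing cells and less RNA per cell cannot be told apart.

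In control cells the Notch genes spanned a range from JAG1, at 19.4 ± 0.915 FPKM, to HEY1, at 0.502 ± 0.0168 FPKM (SD, n = 3, here and below). JAG1 and NOTCH2 led, and their control libraries overlapped. HES1 came next and RBPJ after it, followed by JAG2 and NOTCH1, whose libraries overlapped. MAML1, DLL1 and NOTCH3 lay close together, each overlapping its neighbour, and HEY1 was lowest. The order depends on the length used per gene, worked out as 19930 bases for NOTCH2 and 5487 bases for HEY1. Whether the transcripts in these cells have those lengths was not tested. JAG1 had the highest mean in all 3 groups. In siKDM5C cells HES1 stood above NOTCH2 and JAG2 above both NOTCH1 and RBPJ, and in siSIRT6 cells HEY1 stood above MAML1, NOTCH3 and DLL1.

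**Figure D1:**
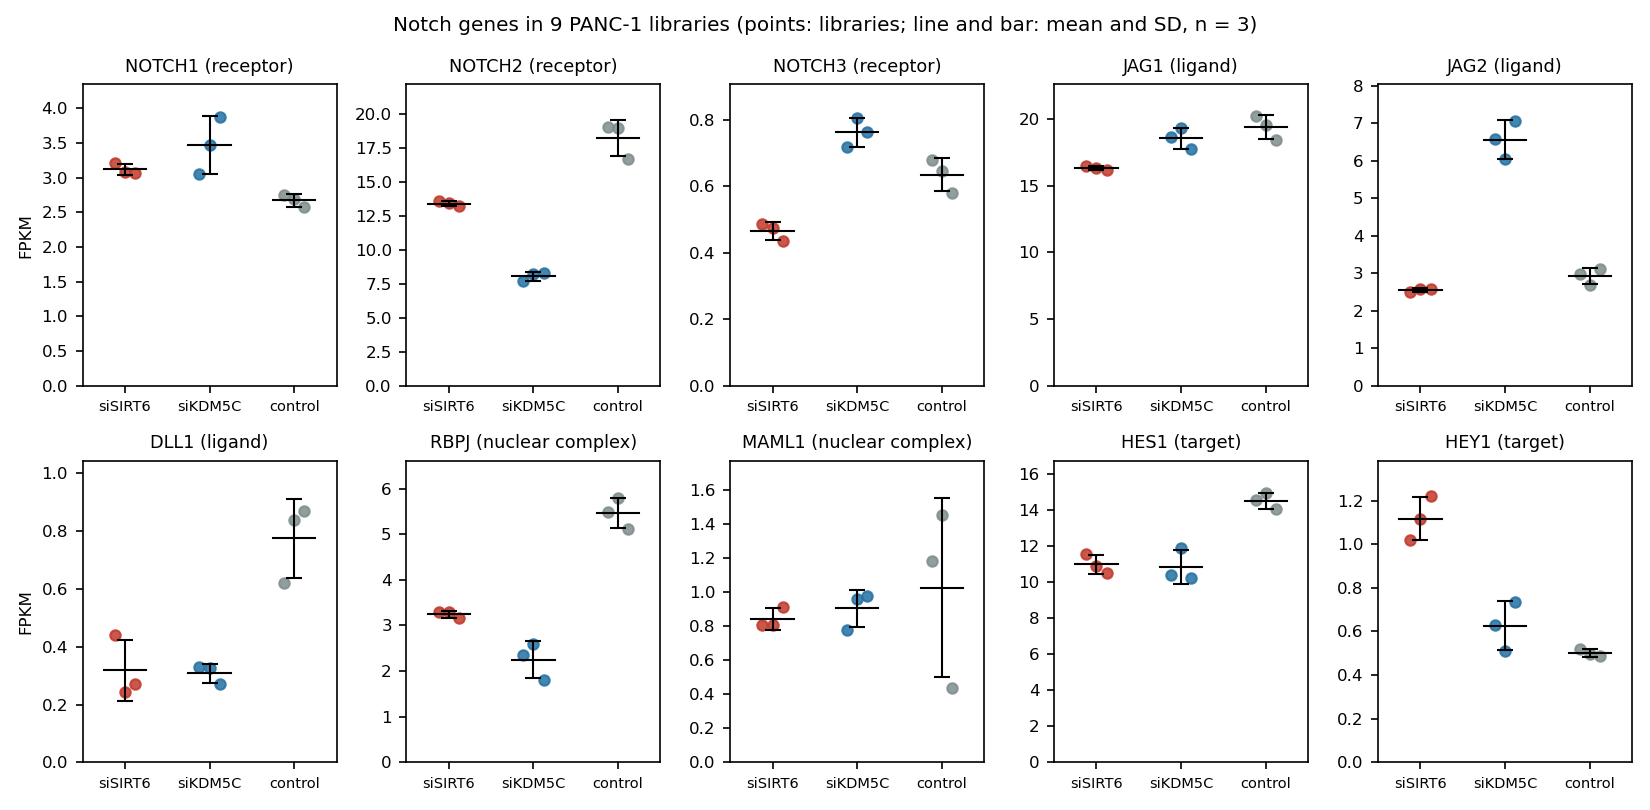
FPKM of the 10 Notch genes in each library (y axis, starting at 0 and scaled per gene), with siSIRT6, siKDM5C and control from left to right; points are libraries, the line is the mean and the bar the SD of 3 libraries. NOTCH2, RBPJ, HES1 and DLL1 sit below control in both knockdowns, JAG2 stands apart in siKDM5C, HEY1 stands apart in siSIRT6, and 1 control library of MAML1 lies far under the other two.

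Both knockdowns lowered NOTCH2, RBPJ and HES1. JAG2 rose 2.25 times in siKDM5C cells, HEY1 rose 2.23 times in siSIRT6 cells, and JAG1 fell in siSIRT6 cells. The test was limma's moderated test on log2(FPKM + 1), with p-values adjusted by the Benjamini-Hochberg method over all 16135 genes that had at least 1 FPKM in at least 3 libraries. A gene was called at an adjusted p under 0.05, and fold changes are differences of log2(FPKM + 1), which understate the change of low genes. Of the 10 Notch genes 7 passed the filter, and NOTCH3, DLL1 and MAML1 did not. HEY1 passed it only through the siSIRT6 libraries, so its rise there was partly built into the filter.

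In siSIRT6 cells 1 of the 7 tested genes rose (HEY1), 4 fell (NOTCH2, JAG1, RBPJ, HES1) and 2 did not pass (NOTCH1, JAG2). Over all genes tested in that comparison 50.8% were called, 23.9% higher and 26.9% lower, so a call for a single gene was common here. In siKDM5C cells 2 rose (NOTCH1, JAG2), 3 fell (NOTCH2, RBPJ, HES1) and 2 did not pass (JAG1, HEY1), beside 51.5% of all tested genes called, 25.6% higher and 25.9% lower. Scaling the libraries to the same total moved the median of all genes up by 0.101 for siSIRT6 and 0.104 for siKDM5C on the log2 scale and tilted these splits, to 4975 higher and 2927 lower genes for siSIRT6, beside 3861 and 4333 as deposited, and to 5317 and 2711 for siKDM5C, beside 4134 and 4174. Between siSIRT6 and siKDM5C cells 3 were higher in siSIRT6 (NOTCH2, RBPJ, HEY1), 2 were lower (JAG1, JAG2) and 2 did not pass (NOTCH1, HES1), beside 39.9% of all genes called, 18.6% higher and 21.3% lower. Both knockdowns were set against the same 3 control libraries, so their fold changes are not independent. The median log2 fold change of the 7 genes was -0.23 for siSIRT6 and -0.06 for siKDM5C against control, and over all tested genes it was -0.05 and -0.02.

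Because the filter left out 3 genes, the FPKM values were also turned back into whole reads and fitted with limma-voom for all 19328 genes with at least 10 reads in at least 3 libraries, a choice made after the data were seen. All 10 Notch genes entered that fit. It called 7 of the 10 for siSIRT6 against control, beside 50.4% of all genes, 6 of the 10 for siKDM5C against control, beside 50.4%, and 6 of the 10 between the knockdowns, beside 41.6%. For the 7 genes of the FPKM fit, the calls were the same in all 3 comparisons.

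**Figure D2:**
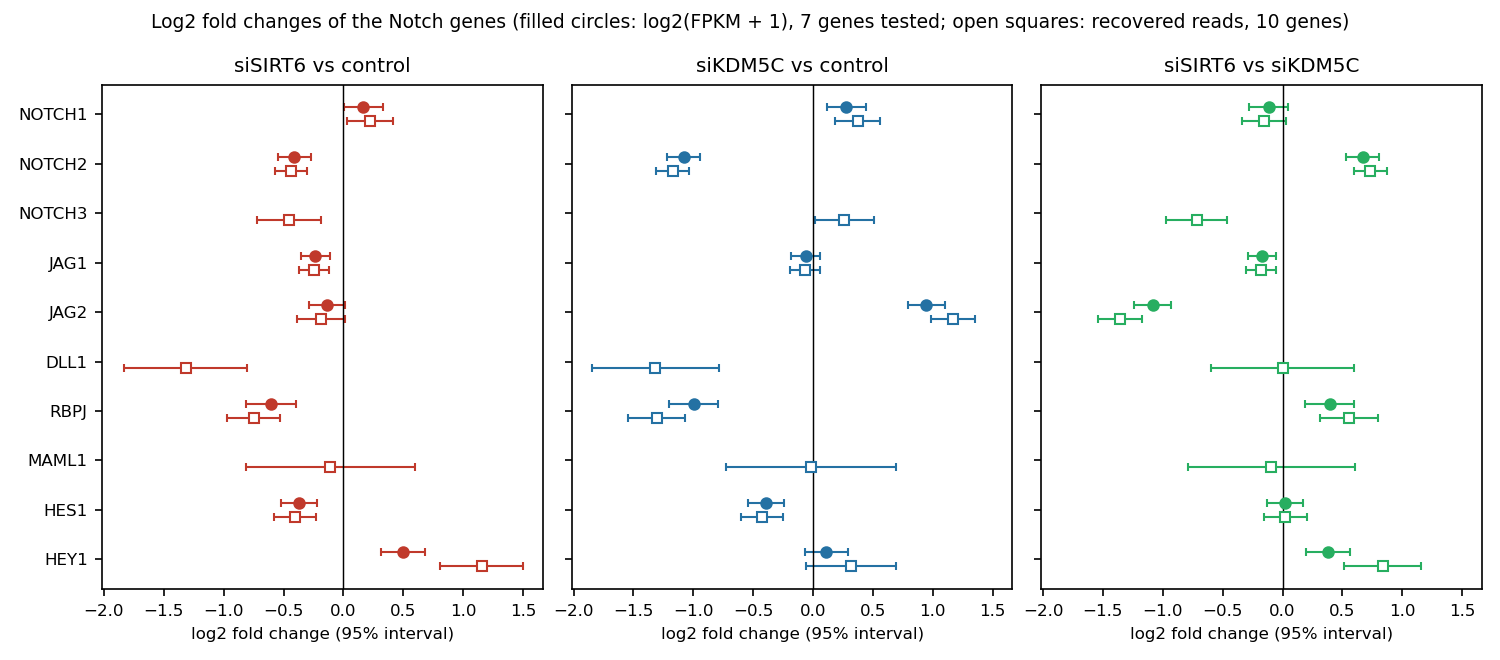
Log2 fold change (x axis) with 95% interval of each Notch gene in each knockdown against control and between the knockdowns (siSIRT6 over siKDM5C); filled circles are from log2(FPKM + 1) for the 7 genes tested, open squares from recovered reads for all 10. NOTCH2 and RBPJ lie left of 0 in both knockdowns and further left after siKDM5C, and HEY1 has the widest gap between the fits, 0.49 against 1.15 in siSIRT6.

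Among the receptors, NOTCH2 (ENSG00000134250, chromosome 1, 119911553 to 120069626, minus strand, GRCh38, GENCODE 29) had the highest level in every library. It had 13.6, 13.4 and 13.2 FPKM in siSIRT6 replicates 1, 2 and 3, 7.70, 8.26 and 8.28 FPKM in siKDM5C, and 19.0, 19.0 and 16.7 FPKM in control. The 3 groups did not overlap, with siKDM5C lowest. NOTCH2 fell by 0.41 on the log2 scale in siSIRT6 cells (SE 0.06, adjusted p = 0.000625), to 73.6% of the control mean. It fell by 1.08 in siKDM5C cells (SE 0.06, adjusted p = 3.25e-06), to 44.3% of the control mean. The siSIRT6 libraries were 0.67 higher than the siKDM5C libraries (SE 0.06, adjusted p = 7.6e-05). NOTCH2 shares sequence with the human NOTCH2NL genes, near-copies of its first exons, and the sources used here do not say how the authors' counting split such reads. NOTCH2NLB, the highest of them, averaged 2.77 FPKM in siSIRT6, 3.36 FPKM in siKDM5C and 4.86 FPKM in control. NOTCH2NLB fell in siSIRT6 (-0.64, adjusted p = 0.00414), as did NOTCH2NLA (-0.60, adjusted p = 0.00251). NOTCH2NLB was also called lower in siKDM5C (-0.44, adjusted p = 0.0218), but not without control replicate 3 (adjusted p = 0.0649), without siKDM5C replicate 3 (adjusted p = 0.0504), with no filter (adjusted p = 0.0536) or with the libraries scaled to the same total (adjusted p = 0.0548). NOTCH2NLA was called lower in siKDM5C too (-0.35, adjusted p = 0.0304), but not without any 1 of the control libraries or siKDM5C replicate 2 or 3 (adjusted p 0.0508 to 0.0926), with no filter (adjusted p = 0.0705) or with the libraries scaled to the same total (adjusted p = 0.0763).

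NOTCH1 (ENSG00000148400, chromosome 9, 136494433 to 136545786, minus strand), the receptor best known from T-cell leukaemia and from arterial and epithelial development, was higher in the knockdown libraries. It had 3.20, 3.08 and 3.07 FPKM in siSIRT6, 3.05, 3.48 and 3.88 FPKM in siKDM5C, and 2.75, 2.69 and 2.57 FPKM in control. All 6 knockdown libraries lay above all 3 controls, and the knockdown groups overlapped. NOTCH1 rose by 0.28 in siKDM5C cells (SE 0.07, adjusted p = 0.0108), to 130% of the control mean. In siSIRT6 cells the log2 fold change of 0.16 (SE 0.07) did not pass, with an adjusted p of 0.0837; it passed when the libraries were scaled by median of ratios (0.19, adjusted p = 0.039), scaled to the same total (0.26, adjusted p = 0.0250), fitted without the siKDM5C group (0.16, adjusted p = 0.0240), or fitted without siKDM5C replicate 1 (adjusted p = 0.0441) or replicate 3 (adjusted p = 0.0369). The difference between the knockdowns was -0.11 (95% interval -0.28 to 0.05, adjusted p = 0.234).

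NOTCH3 (ENSG00000074181, chromosome 19, 15159038 to 15200981, minus strand), the receptor of vascular smooth muscle that is also studied in pancreatic carcinoma, was low throughout. It had 0.486, 0.473 and 0.434 FPKM in siSIRT6, 0.718, 0.804 and 0.763 FPKM in siKDM5C, and 0.677, 0.646 and 0.581 FPKM in control, from 86 to 167 reads per library. The groups did not overlap, with siSIRT6 lowest and siKDM5C highest. On recovered reads NOTCH3 fell by 0.46 in siSIRT6 cells (SE 0.12, adjusted p = 0.00836), its value in siKDM5C cells was 0.26 (SE 0.11, adjusted p = 0.0735, not passed), and siSIRT6 lay 0.72 below siKDM5C on the log2 scale (-0.72, SE 0.12, adjusted p = 0.000436). With log2(FPKM + 1) and no filter the call against control was lost (-0.16, adjusted p = 0.0624) and that between the knockdowns was not (-0.27, adjusted p = 0.0104).

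These changes altered the make-up of the receptors. The summed FPKM of NOTCH1, NOTCH2 and NOTCH3 was 17.0 ± 0.264 in siSIRT6, 12.3 ± 0.751 in siKDM5C and 21.5 ± 1.48 in control. NOTCH2 made up 78.6%, 79.1% and 79.0% of that sum in siSIRT6 libraries, 67.1%, 65.9% and 64.1% in siKDM5C libraries, and 84.7%, 85.0% and 84.1% in control libraries. The 3 groups did not overlap in this share. A two-sided exact permutation test gave p = 0.1 for each pair of groups, the smallest p that 3 libraries against 3 allow.

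Among the ligands, JAG1 (ENSG00000101384, chromosome 20, 10637684 to 10673999, minus strand), the ligand mutated in Alagille syndrome, differed little between groups. It had 16.5, 16.3 and 16.2 FPKM in siSIRT6, 18.6, 19.3 and 17.7 FPKM in siKDM5C, and 20.2, 19.6 and 18.4 FPKM in control. The siSIRT6 libraries lay below all others, and siKDM5C overlapped control. JAG1 fell by 0.23 in siSIRT6 cells (SE 0.05, adjusted p = 0.00563), to 84.2% of the control mean; with the libraries scaled to the same total this call was lost (-0.12, adjusted p = 0.163). In siKDM5C cells the value was -0.06 (95% interval -0.18 to 0.06, adjusted p = 0.351), and 0.06 under that scaling. Between the knockdowns JAG1 was lower in siSIRT6 (-0.17, SE 0.05, adjusted p = 0.0285). That call was lost without any 1 of the siSIRT6 libraries or without siKDM5C replicate 1 or 2, with adjusted p from 0.0591 to 0.0911. An antisense gene, ENSG00000270792, overlaps JAG1 and had 5.11 FPKM in siSIRT6, 6.12 FPKM in siKDM5C and 5.66 FPKM in control on average; the sources used here do not say whether the authors' counting used strand.

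JAG2 (ENSG00000184916, chromosome 14, 105140981 to 105168824, minus strand), the second Jagged ligand, set the siKDM5C cells apart. It had 2.495, 2.59 and 2.59 FPKM in siSIRT6, 6.57, 6.05 and 7.07 FPKM in siKDM5C, and 2.98, 2.68 and 3.11 FPKM in control. Every siKDM5C library lay above every library of the other groups. JAG2 rose by 0.95 in siKDM5C cells (SE 0.07, adjusted p = 1.15e-05), to 225% of the control mean. The siSIRT6 level was 39.0% of the siKDM5C level, a log2 difference of -1.09 (SE 0.07, adjusted p = 1.14e-05). Against control the siSIRT6 libraries, all 3 of them lower, gave -0.14 (95% interval -0.29 to 0.01, adjusted p = 0.113), which did not pass. ENSG00000257622, an uncharacterised transcript on the same strand, overlaps JAG2 and averaged 10.3 FPKM in siSIRT6, 15.5 FPKM in siKDM5C and 9.47 FPKM in control, so that reads of the pair may be shared.

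DLL1 (ENSG00000198719, chromosome 6, 170282206 to 170306565, minus strand), a Delta-like ligand that activates Notch in trans, was expressed at a low level. It had 0.439, 0.244 and 0.272 FPKM in siSIRT6, 0.329, 0.326 and 0.270 FPKM in siKDM5C, and 0.619, 0.837 and 0.870 FPKM in control. These rest on 18 to 33 reads in siSIRT6, 23 to 24 reads in siKDM5C and 43 to 62 reads in control. Neither knockdown overlapped control. On recovered reads DLL1 fell by 1.32 in siSIRT6 cells (SE 0.24, adjusted p = 0.000589) and by 1.32 in siKDM5C cells (SE 0.24, adjusted p = 0.000688), to 41.1% and 39.8% of the control mean. With log2(FPKM + 1) and no filter it was called lower in both as well, at -0.43 (adjusted p = 0.00575) and -0.44 (adjusted p = 0.00508). The 95% interval of the difference between the knockdowns ran from -0.60 to 0.60 on recovered reads. FAM120B, a gene on the opposite strand that overlaps DLL1, averaged 2.93 FPKM in siSIRT6, 2.36 FPKM in siKDM5C and 2.00 FPKM in control.

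The 3 ligands summed to 19.2 ± 0.202 FPKM in siSIRT6, 25.4 ± 0.327 FPKM in siKDM5C and 23.1 ± 0.713 FPKM in control, without overlap between groups. JAG1 held 85.0% ± 0.167 of that sum in siSIRT6, 72.9% ± 2.23 in siKDM5C and 84.0% ± 1.498 in control. The siKDM5C libraries ran from 70.7% to 75.2%, below every other library (two-sided exact permutation p = 0.1 against either group, the smallest possible).

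**Figure D3:**
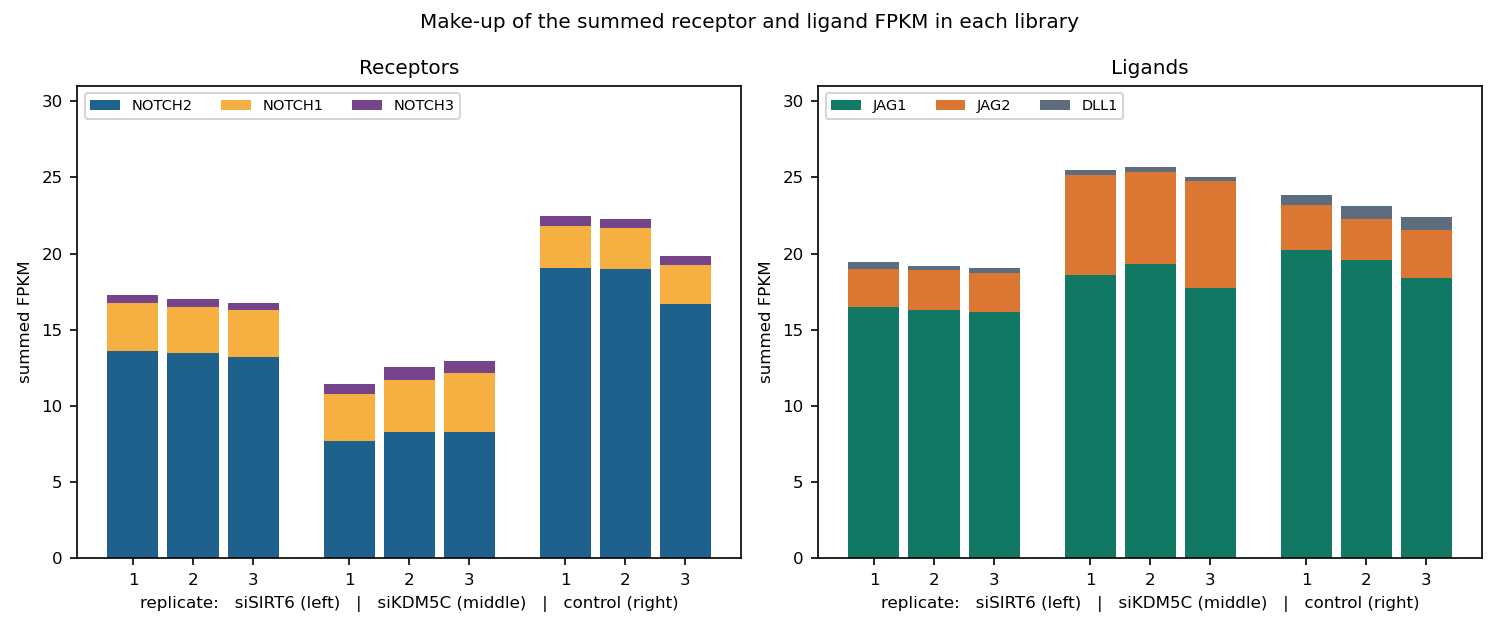
Summed FPKM (y axis) of the receptors NOTCH1 to NOTCH3 (left) and of the ligands JAG1, JAG2 and DLL1 (right) in each library, stacked by gene, with siSIRT6, siKDM5C and control from left to right. The NOTCH2 part is smallest in siKDM5C, and the JAG2 part is largest there, while JAG1 differs little between groups.

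In the nucleus, RBPJ (ENSG00000168214, chromosome 4, 26163455 to 26435131, plus strand), which binds Notch target genes and represses them until the receptor's intracellular part arrives, fell in both knockdowns. It had 3.30, 3.29 and 3.16 FPKM in siSIRT6, 2.35, 2.599 and 1.81 FPKM in siKDM5C, and 5.48, 5.79 and 5.12 FPKM in control. The groups did not overlap, and siKDM5C was lowest. RBPJ fell by 0.60 in siSIRT6 cells (SE 0.09, adjusted p = 0.000730), to 59.5% of the control mean. It fell by 1.00 in siKDM5C cells (SE 0.09, adjusted p = 4.45e-05), to 41.2%. The siSIRT6 level was 0.39 higher than the siKDM5C level (SE 0.09, adjusted p = 0.00914). On recovered reads the falls were larger, at -0.75 (adjusted p = 7.08e-05) and -1.30 (adjusted p = 1.19e-06).

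MAML1 (ENSG00000161021, chromosome 5, 179732850 to 179777286, plus strand), the coactivator that completes the complex, could not be judged in these libraries. It had 0.809, 0.807 and 0.915 FPKM in siSIRT6, 0.781, 0.960 and 0.979 FPKM in siKDM5C, and 1.19, 1.46 and 0.440 FPKM in control. Control replicate 3 stood apart, with 49 reads (exact Poisson 95% interval 36.3 to 64.8, counting error only) against 129 and 166 in the other control libraries. On recovered reads the 95% interval was -0.82 to 0.60 for siSIRT6 and -0.72 to 0.69 for siKDM5C, wide enough to hold a clear change in either direction.

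HES1 (ENSG00000114315, chromosome 3, 194136145 to 194138732, plus strand), a repressor of differentiation genes and the most used readout of Notch activity, had 11.6, 10.9 and 10.5 FPKM in siSIRT6, 10.4, 11.9 and 10.2 FPKM in siKDM5C, and 14.5, 14.9 and 14.1 FPKM in control. All knockdown libraries lay below all controls, and the knockdown groups overlapped. HES1 fell by 0.37 in siSIRT6 cells (SE 0.07, adjusted p = 0.00175), to 75.8% of the control mean. It fell by 0.39 in siKDM5C cells (SE 0.07, adjusted p = 0.00128), to 74.7%. The difference between the knockdowns was 0.02, with a 95% interval from -0.13 to 0.17 (adjusted p = 0.816), so a difference in HES1 beyond that interval was not seen.

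RBPJ binds DNA at a core of 6 bases, TGGGAA, and HES1 is a known target. RefSeq promoters (build GRCh38.p14, 250 bases before to 50 after the start) were found for 8 of the 10 genes and were searched for TGGGAA and its reverse complement TTCCCA. The core was found in promoters of HES1 and RBPJ, and in no window of NOTCH1, NOTCH2, NOTCH3, JAG1, JAG2 or MAML1. DLL1 and HEY1 had no window to search. Whether the core goes with the changes of these genes was not tested. The HES1 window holds it at -84 and -70 from the start, and of 5 RBPJ starts 1 holds it at -115, as the reverse complement, and at -72. Of 35097 promoters, 24.0% hold the core at least once and 3.80% at least 2 times. RBPJ sites that differ from this core were not searched for. The windows are printed to show the exact matches, in capitals.
HES1, chr3:194135898-194136197, plus strand: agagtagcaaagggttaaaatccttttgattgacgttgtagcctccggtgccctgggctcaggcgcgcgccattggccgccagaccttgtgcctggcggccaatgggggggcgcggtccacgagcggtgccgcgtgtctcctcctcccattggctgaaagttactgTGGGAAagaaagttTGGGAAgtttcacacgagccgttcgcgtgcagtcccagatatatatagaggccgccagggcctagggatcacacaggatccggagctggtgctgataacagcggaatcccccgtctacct
RBPJ, chr4:26319496-26319795, plus strand: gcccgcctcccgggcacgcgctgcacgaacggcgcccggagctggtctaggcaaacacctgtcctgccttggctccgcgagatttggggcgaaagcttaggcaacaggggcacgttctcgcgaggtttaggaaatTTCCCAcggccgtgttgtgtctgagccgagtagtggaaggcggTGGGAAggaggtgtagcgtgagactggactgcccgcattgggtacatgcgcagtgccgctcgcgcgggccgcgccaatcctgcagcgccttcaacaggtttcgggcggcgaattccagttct
The longer form GTGGGAA, which contains the core, is held by 6.25% of promoters, and it occurs at -85 in HES1 and at -115 and -73 in the RBPJ window. The HES proteins bind N boxes, CACNAG, which 38.0% of promoters hold on either strand. The HES1 window holds 4 of them, at -165, -132, -58 and 16. N boxes also lie in the windows of NOTCH1, NOTCH2, NOTCH3, MAML1 and an RBPJ start, and 8.94% of promoters hold 2 or more. A match is a description of the sequence, and no binding was measured here.

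HEY1 (ENSG00000164683, chromosome 8, 79764010 to 79767863, minus strand), a repressor related to HES1 and known from heart and vessel development, did not follow HES1. It had 1.02, 1.11 and 1.22 FPKM in siSIRT6, 0.630, 0.512 and 0.736 FPKM in siKDM5C, and 0.521, 0.497 and 0.488 FPKM in control. The siSIRT6 libraries lay above all others, and siKDM5C overlapped control. These values rest on 110 to 180 reads in siSIRT6, 52 to 94 reads in siKDM5C and 50 to 52 reads in control. HEY1 rose by 0.49 in siSIRT6 cells (SE 0.08, adjusted p = 0.00109), and by 1.15 on recovered reads (SE 0.16, adjusted p = 7.19e-05), where the filter did not depend on the siSIRT6 libraries. In siKDM5C cells the recovered-read value was 0.32 (95% interval -0.06 to 0.70, adjusted p = 0.150). The siSIRT6 libraries were higher than the siKDM5C libraries by 0.84 on recovered reads (SE 0.15, adjusted p = 0.000704) and by 0.38 on log2(FPKM + 1) (SE 0.08, adjusted p = 0.00584), where HEY1 entered the test through the siSIRT6 libraries alone.

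The genes whose 9 library values followed a Notch gene most closely were ranked by the root mean square difference of log2(FPKM + 1), each gene taken relative to its control mean, over 13647 tested genes with a symbol. For NOTCH2 they were HEG1, at 0.0463, CRISPLD2, at 0.0643, and SLC6A6, at 0.0724. For JAG2 they were CHAF1A, at 0.0778, INCENP, at 0.0857, and SPRY2, at 0.0900. For RBPJ they were NCR3LG1, at 0.0337, IFNAR2, at 0.0681, and ELOVL7, at 0.0695. HEG1 differed from its control mean by -0.42 in siSIRT6 and -1.06 in siKDM5C, close to the values of NOTCH2.

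The surrounding pathway was read from 82 other genes in lists ordered by role, of which 72 passed the filter. In siSIRT6 cells 20 rose, 21 fell and 31 did not pass, beside 50.8% of all tested genes called. In siKDM5C cells 26 rose, 24 fell and 22 did not pass, beside 51.5% of all tested genes called. The 72 genes had a median log2 fold change of -0.01 for siSIRT6 and -0.04 for siKDM5C, close to that of all genes. Between siSIRT6 and siKDM5C cells 16 were higher, 21 lower and 35 did not pass, beside 39.9% of all tested genes called.

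Among other ligands and receptors, DNER, a neuronal Notch ligand without the usual receptor-binding domain, made the largest change. It had 9.53 ± 0.158 FPKM in siSIRT6, 4.62 ± 0.378 FPKM in siKDM5C and 2.15 ± 0.158 FPKM in control. DNER rose by 1.74 in siSIRT6 (adjusted p = 4.64e-07) and by 0.84 in siKDM5C (adjusted p = 1.73e-05). DLL4, the ligand of sprouting vessels, was low in siSIRT6, with 0.528 ± 0.0846 FPKM in siSIRT6, 1.89 ± 0.333 FPKM in siKDM5C and 1.36 ± 0.145 FPKM in control, with a log2 fold change of -0.63 for siSIRT6 against control (adjusted p = 0.000868), and its siSIRT6 libraries lay below siKDM5C (-0.92, adjusted p = 0.000180). DLK2, a Delta-like protein that in mouse cells inhibits Notch, rose in siKDM5C cells (0.60, adjusted p = 0.00155). DLL3, a Delta-like protein that inhibits Notch within the cell, was more abundant than JAG1 on the FPKM scale, at 23.1 ± 1.64 in siSIRT6, 23.8 ± 5.14 in siKDM5C and 25.2 ± 3.52 in control, and did not pass in any comparison (adjusted p = 0.555, 0.642 and 0.917). Of 6 tested genes 1 rose and 3 fell after siSIRT6 (50.8% of all genes called), and 3 rose and 2 fell after siKDM5C (51.5%). NOTCH4 and DLK1 stayed under 0.1 FPKM.

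The proteases that release the receptor moved unevenly. ADAM17, a sheddase of Notch and many other surface proteins, had 2.86 ± 0.122 FPKM in siSIRT6, 4.77 ± 0.307 FPKM in siKDM5C and 9.82 ± 0.564 FPKM in control. It fell by 1.49 in siSIRT6 (adjusted p = 8.43e-07) and by 0.91 in siKDM5C (adjusted p = 9.49e-06). ADAM10, the main sheddase for ligand-bound Notch, was higher in siSIRT6 than in siKDM5C (0.44, adjusted p = 0.00275). NCSTN, the gamma-secretase subunit that receives the substrate, had 26.1 ± 0.327 FPKM in siSIRT6, 10.02 ± 0.185 FPKM in siKDM5C and 15.4 ± 0.0588 FPKM in control. NCSTN rose in siSIRT6 (0.72, adjusted p = 3.44e-06) and fell in siKDM5C (-0.58, adjusted p = 1.09e-05), a difference of 1.30 between the knockdowns (adjusted p = 7.99e-07). PSEN2, a catalytic subunit, fell in both (-0.56, adjusted p = 6.92e-05, and -0.63, adjusted p = 3.66e-05), and the subunit APH1B was higher in siSIRT6 than in siKDM5C (0.74, adjusted p = 0.000381). Of 9 cleavage genes 4 rose and 3 fell after siSIRT6 (50.8% of all genes called), and 2 rose and 4 fell after siKDM5C (51.5%).

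Among the enzymes that put sugars on the receptor, POFUT1, which adds the first fucose, rose in both knockdowns, with 39.9 ± 1.45 FPKM in siSIRT6, 37.6 ± 2.21 FPKM in siKDM5C and 20.7 ± 1.14 FPKM in control (log2 fold changes 0.92, adjusted p = 8.99e-06, and 0.83, adjusted p = 1.55e-05). POGLUT1, which adds glucose, fell in both (-0.65, adjusted p = 3.83e-05, and -0.47, adjusted p = 0.000224). LFNG, the Fringe enzyme that extends fucose and shifts the receptor's response from Jagged towards Delta-like ligands, had 5.78 ± 0.733 FPKM in siSIRT6, 2.14 ± 0.296 FPKM in siKDM5C and 4.65 ± 0.0218 FPKM in control. LFNG fell by 0.85 in siKDM5C (adjusted p = 0.000132) and was 1.11 higher in siSIRT6 than in siKDM5C (adjusted p = 5.59e-05). EOGT, which adds N-acetylglucosamine, was called lower in siSIRT6 (-0.33, adjusted p = 0.0220), but not without control replicate 1 or 2 or siSIRT6 replicate 1 or 2 (adjusted p 0.0561 to 0.0769), with no filter (adjusted p = 0.0513) or with the libraries scaled to the same total (adjusted p = 0.129). EOGT fell in siKDM5C (-0.60, adjusted p = 0.00120). The xylosyltransferase genes GXYLT2 and XXYLT1 were higher in siSIRT6 than in siKDM5C (0.52, adjusted p = 0.000476, and 0.40, adjusted p = 0.00261). Of 9 genes 3 rose and 2 fell after siSIRT6 (50.8% of all genes called), and 4 rose and 5 fell after siKDM5C (51.5%).

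For ligand endocytosis, EPN1, an epsin that pulls the bound ligand into the sending cell, had 15.4 ± 0.612 FPKM in siSIRT6, 16.1 ± 2.07 FPKM in siKDM5C and 5.39 ± 0.201 FPKM in control, a rise of 1.36 (adjusted p = 5.54e-06) and 1.41 (adjusted p = 4.49e-06). MIB1, the ubiquitin ligase of the ligands, fell in siKDM5C (-0.47, adjusted p = 0.0134; 0.0526 with the libraries scaled to the same total) and was 0.61 higher in siSIRT6 than there (adjusted p = 0.00547). Of 4 tested genes 1 rose and none fell after siSIRT6 (50.8% of all genes called), and 1 rose and 1 fell after siKDM5C (51.5%).

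Among inhibitors and ubiquitin ligases of receptor turnover, NUMB and ITCH did not pass against control in either knockdown. DTX3L, a Deltex family ligase, had 12.2 ± 0.340 FPKM in siSIRT6, 6.40 ± 0.653 FPKM in siKDM5C and 14.3 ± 1.29 FPKM in control, and fell by 1.05 in siKDM5C (adjusted p = 1.84e-05). DTX2 fell in siSIRT6 (-0.50, adjusted p = 0.000250), and WWP2 rose in both (0.60, adjusted p = 8.49e-05, and 0.57, adjusted p = 0.000116). DTX3 rose in siKDM5C (0.31, adjusted p = 0.0172), a call lost without control replicate 1 (0.23, adjusted p = 0.0557). NEDD4L was at -0.15 in siSIRT6 (adjusted p = 0.0345) and lost its call without any 1 of the control or siSIRT6 libraries (adjusted p 0.0661 to 0.107). The call was also lost with no filter (adjusted p = 0.0593) or with a term for replicate number in the fit (adjusted p = 0.0603). Scaling by median of ratios (-0.13, adjusted p = 0.0783) or to the same total (-0.06, adjusted p = 0.361) lost it too. Of 11 tested genes 1 rose and 2 fell after siSIRT6 (50.8% of all genes called), and 3 rose and 3 fell after siKDM5C (51.5%).

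Among coactivators, the MAML1 relative MAML2 rose in both knockdowns. It had 2.14 ± 0.0742 FPKM in siSIRT6, 2.03 ± 0.177 FPKM in siKDM5C and 1.44 ± 0.111 FPKM in control (0.36, adjusted p = 0.00238, and 0.31, adjusted p = 0.00502). MAML3, another relative, rose by 0.42 in siKDM5C (adjusted p = 0.000324). EP300, the acetyltransferase that Mastermind recruits, fell in both (-0.43, adjusted p = 0.000156, and -0.40, adjusted p = 0.000234), and KAT2A fell in siSIRT6 (-0.51, adjusted p = 0.00160). KAT2B was lower in siSIRT6 than in siKDM5C (-0.39, adjusted p = 0.0150; 0.0521 without siSIRT6 replicate 1). Of 7 genes 2 rose and 3 fell after siSIRT6 (50.8% of all genes called), and 2 rose and 1 fell after siKDM5C (51.5%).

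Among the corepressors that RBPJ carries when Notch is off, HDAC1, a histone deacetylase, had 50.5 ± 1.14 FPKM in siSIRT6, 53.4 ± 5.49 FPKM in siKDM5C and 20.6 ± 1.13 FPKM in control. It rose by 1.25 (adjusted p = 4.84e-06) and 1.33 (adjusted p = 3.49e-06). CIR1, which links RBPJ to deacetylases, rose in siSIRT6 (0.59, adjusted p = 7.01e-05) and in siKDM5C (0.48, adjusted p = 0.000225). L3MBTL3, which brings a histone demethylase to RBPJ, rose in siSIRT6 (0.29, adjusted p = 0.00126) and in siKDM5C (0.46, adjusted p = 9.6e-05). SPEN, the corepressor that competes with Notch for RBPJ, fell in both knockdowns (-0.55, adjusted p = 2.29e-05, and -0.43, adjusted p = 8.92e-05). FHL1, TLE4 and TLE3 were higher in siSIRT6 than in siKDM5C (0.64, adjusted p = 0.000867; 0.58, adjusted p = 0.00119; 0.33, adjusted p = 0.00219). Of 16 tested genes 7 rose and 3 fell after siSIRT6 (50.8% of all genes called), and 6 rose and 5 fell after siKDM5C (51.5%).

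Other HES and HEY genes and reported targets did not move as a group. The cell cycle gene CCND1 made the largest fall, with 48.7 ± 0.187 FPKM in siSIRT6, 34.8 ± 1.25 FPKM in siKDM5C and 205 ± 15.5 FPKM in control (-2.04, adjusted p = 2.78e-07, and -2.52, adjusted p = 6.34e-08). CDKN1A, the cell cycle inhibitor p21, fell in both as well (-1.29, adjusted p = 5.66e-07, and -1.22, adjusted p = 6.97e-07). MYC had 19.7 ± 0.834 FPKM in siSIRT6, 33.4 ± 1.05 FPKM in siKDM5C and 18.6 ± 1.26 FPKM in control, and rose in siKDM5C (0.81, adjusted p = 1.59e-05). HES6, which opposes HES1, fell in siSIRT6 (-0.95, adjusted p = 0.000408), and HES7, the oscillator of somite formation, was lower in siSIRT6 than in siKDM5C (-0.73, adjusted p = 0.000126). Of 10 tested genes 1 rose and 5 fell after siSIRT6 (50.8% of all genes called), and 5 rose and 3 fell after siKDM5C (51.5%). HEYL, a HEY1 relative counted among the falls in both, passed the filter only through the 3 control libraries. On recovered reads, where it entered without that limit, it was at -0.63 (adjusted p = 0.00465) and -0.51 (adjusted p = 0.0143). Its siKDM5C call on log2(FPKM + 1) (-0.26, adjusted p = 0.0313) was lost with no filter (0.0584) or with the 2 groups alone (0.0714). It was also lost with a term for replicate number in the fit (0.0535) or with the libraries scaled to the same total (0.0784). Leaving out siKDM5C replicate 1 (adjusted p = 0.0687) or 3 (adjusted p = 0.0780) lost it too.

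**Figure D4:**
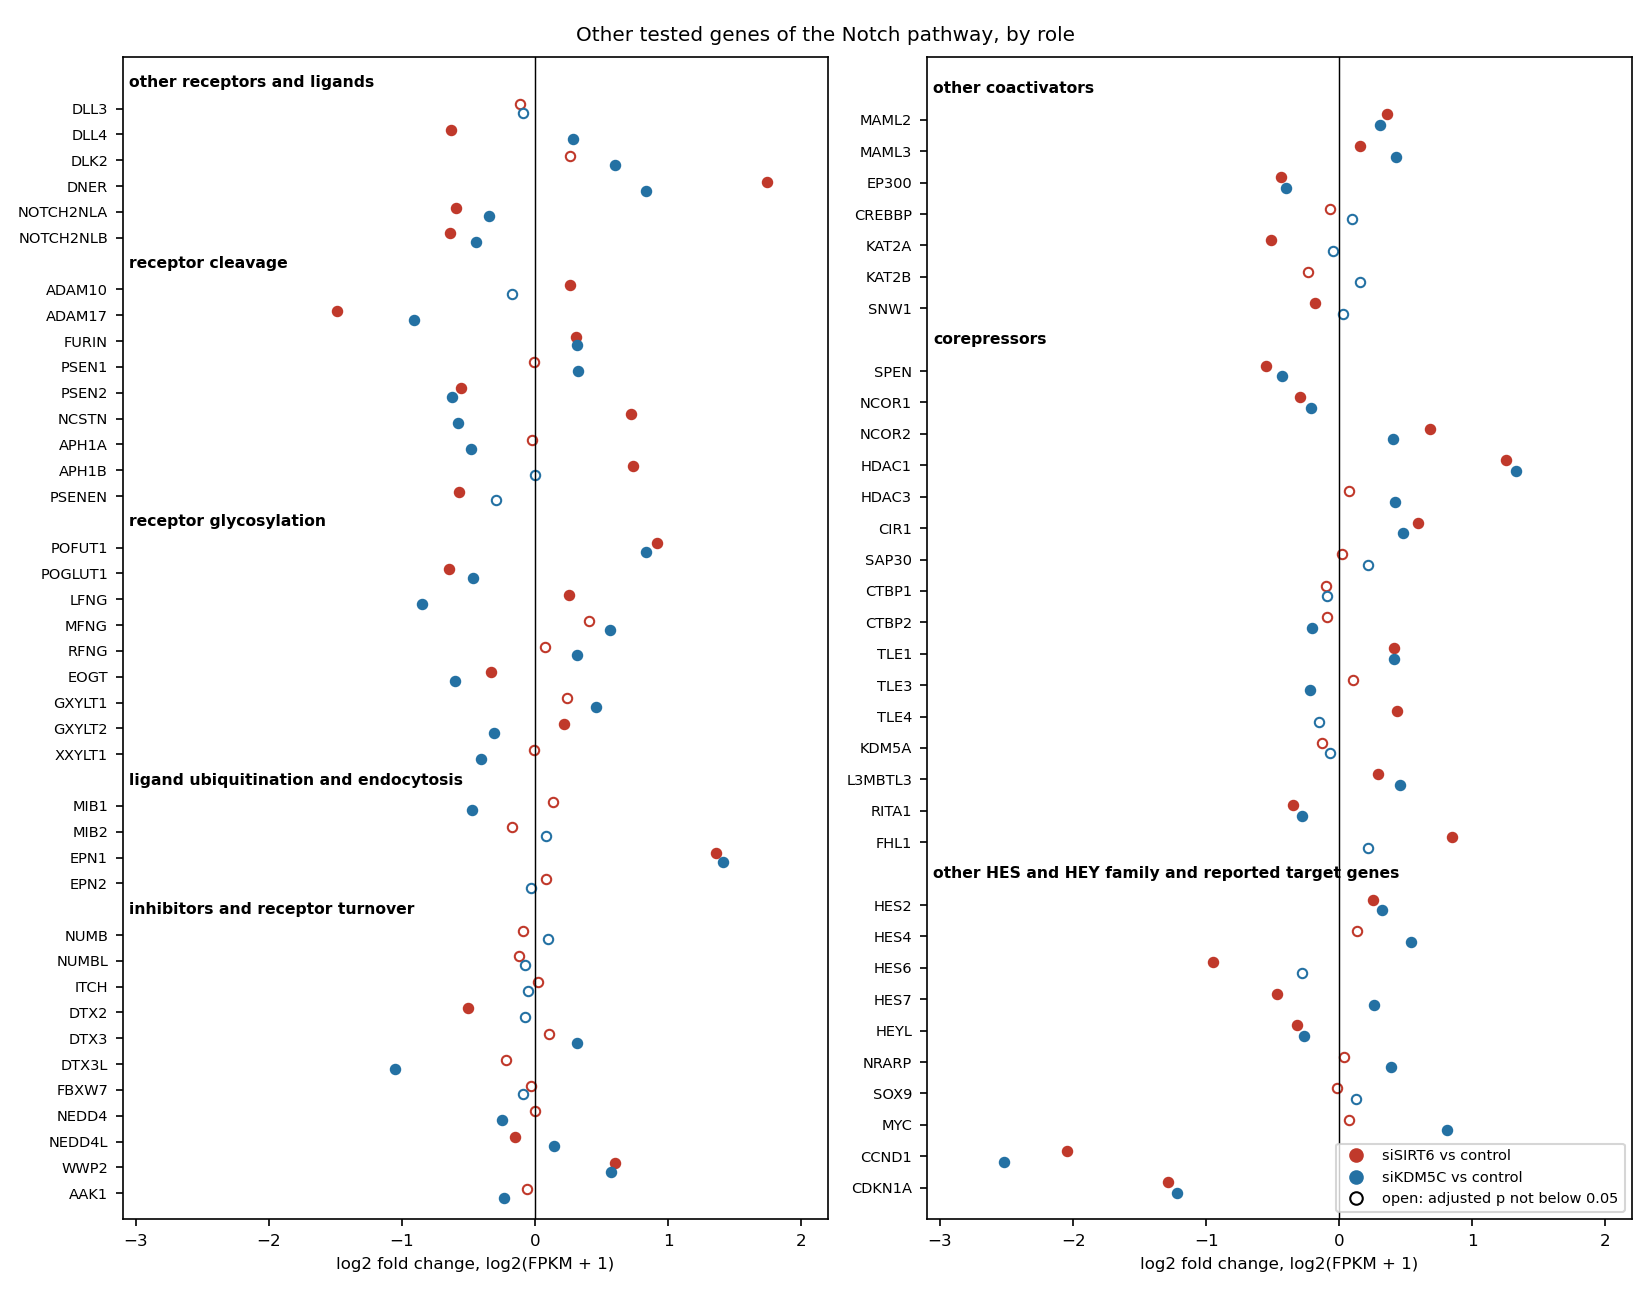
Log2 fold change on the log2(FPKM + 1) scale (x axis) of the 72 other tested pathway genes against control, listed by role, with siSIRT6 in red above siKDM5C in blue; open points did not pass. Each role holds genes on both sides of 0, with CCND1 furthest left in both knockdowns, DNER furthest right in siSIRT6 and NCSTN on opposite sides.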

How the data were processed

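Sequencing of mRNA from 9 PANC-1 libraries was analysed, 3 per group, grouped by the sample titles. The deposited files hold 1 FPKM value per gene and library, made by the authors without pooling. Trimmomatic, HISAT2, Cufflinks, HTSeq and build hg38 are named, per the submitters' processing notes, without versions; the sources used here do not give the annotation or strand setting. Symbols matched 36659 of 36753 identifiers.

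The test was limma-trend (limma 3.58.1, R 4.3.3) on log2(FPKM + 1), two-sided, after a filter of 1 FPKM in 3 libraries; the 9 libraries shared a model with group means, and p-values were adjusted over all tested genes. The script was tested on simulated data. Reads were recovered as whole multiples (tolerance 0.01) for 96.5% of genes; the other genes used the exon length, which may differ from the authors' length. Depths of 18201413 to 26910441 reads put the precision of low genes at their read counts. The 10 genes and the pathway lists were chosen with earlier results of these data known. Beyond the 10 genes and the siRNA targets, the text names up to 3 genes per list and comparison with the smallest adjusted p, and for each gene whose mean differs from control by at least 0.5 the 3 closest profiles; ADAM10, DLL3, HEYL, NUMB, ITCH, NOTCH4 and DLK1 were added after their values were seen. Alternatives changed the pseudocount, filter, groups fitted, block, scaling, libraries and reads.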

Additional observations from a re-analysis of the deposited data

How the results depend on the processing

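The directions and calls of NOTCH2, RBPJ and HES1 against control, of JAG2 and NOTCH1 after siKDM5C, and of NOTCH2, JAG2 and RBPJ between the knockdowns held under every alternative that tested them. The minimum of 5 FPKM does not count here for JAG2, which entered only through siKDM5C, or for RBPJ, which entered only through control, and NOTCH1 was not tested at it. On filtered FPKM, HEY1 was tested only when all 3 siSIRT6 libraries were in, so those settings say nothing of its stability; it has no value without any 1 siSIRT6 library or at a minimum of 5 FPKM. Scaling each library to the same total made 63.0% of calls for siSIRT6 and 66.2% of calls for siKDM5C higher, beside 47.1% and 49.8% as deposited. Under it NOTCH1 passed after siSIRT6 (0.26), JAG1 did not (-0.12), JAG1 turned to 0.0628 after siKDM5C and did not pass between the knockdowns (-0.18); 2711 genes were lower after siKDM5C, 2 of the Notch genes higher after siSIRT6, and 1 lower between the knockdowns. NOTCH1 also passed after siSIRT6 by median of ratios (0.19) and with the 2 groups alone (0.16), making 2 higher. At a minimum of 5 FPKM 2773 genes were lower after siSIRT6, 2726 higher and 2692 lower after siKDM5C, and 2255 lower between the knockdowns, since fewer genes were tested; Notch genes higher were 0 after siSIRT6 and 1 after siKDM5C. For the other changes the cause was not tested.

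Leaving out 1 library at a time, Notch genes higher after siSIRT6 ranged from 0 to 2, and NOTCH1 there from 0.15 to 0.18, passing without siKDM5C replicate 1 or 3. Between the knockdowns Notch genes lower ranged from 1 to 2, JAG1 from -0.20 to -0.14 (adjusted p 0.0167 to 0.0911), and HES1, never called, from -0.0157 to 0.0855. Deviations of same-numbered libraries correlated at -0.229 to 0.252 (1 of 9 over 0.1), and those of differently numbered libraries at -0.353 to 0.426. With so few libraries this cannot tell whether a number marks a shared culture or day. A replicate block gave 3794 higher and 4336 lower genes for siSIRT6, and 4077 and 4168 for siKDM5C. Between the knockdowns it gave 3019 and 3367, and it changed no call of a Notch gene. Depth limits DLL1, HEY1, NOTCH3 and MAML1, which rest on 18 to 180 reads per library.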

Other observations

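Of the 9 listed pathway genes with values under the filter, 6 entered the fit of recovered reads. They are given after their values were seen. DTX4, a Deltex family ubiquitin ligase, averaged 0.0591 FPKM in siSIRT6, 0.0457 FPKM in siKDM5C and 0.427 FPKM in control. It was called lower in both knockdowns (-2.78, adjusted p = 7.76e-06, and -3.19, adjusted p = 5.97e-06, limma-voom). These values rest on 7 to 10 reads in siSIRT6, 3 to 8 in siKDM5C and 43 to 60 in control. DTX4 entered the recovered-read fit only through the control libraries, so its fall was partly built into the filter. NEURL1B, a ubiquitin ligase of Notch ligands, averaged 0.461 FPKM in siSIRT6, 0.379 FPKM in siKDM5C and 0.770 FPKM in control and was called lower in both (-0.74 and -1.03). NOTCH2NLC, a near-copy of the start of NOTCH2, was called lower in siSIRT6 against control (-1.36, adjusted p = 0.00364), and the corepressor TLE2 in siKDM5C against control (-0.63, adjusted p = 0.0295). The TLE2 libraries overlapped, at 0.770, 0.547 and 0.538 FPKM in siKDM5C and 1.18, 0.682 and 1.05 FPKM in control. They rest on 42 to 61 reads in siKDM5C and 54 to 89 reads in control. NOTCH4 did not pass against control in siSIRT6 (adjusted p = 0.253) or siKDM5C (adjusted p = 0.214). It was called lower in siSIRT6 than in siKDM5C (-1.44, adjusted p = 0.0306), from 2 to 9 reads in siSIRT6 and 9 to 21 in siKDM5C. HEY2, the closest relative of HEY1, averaged 0.452 FPKM in siSIRT6, 0.330 FPKM in siKDM5C and 0.300 FPKM in control and did not pass in either (0.57, adjusted p = 0.139, and 0.10, adjusted p = 0.816).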
